A study of Homo sapiens with 4 samples.

Results

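The proteasome is described here through the 50 protein-coding genes whose symbols begin with PSMA, PSMB, PSMC, PSMD, PSME, PSMF or PSMG, together with POMP, out of 35316 gene identifiers in the junction tables of K562 and HepG2. These genes hold 734 of the 350863 splice junctions listed. By role they are 8 alpha subunits and 4 non-catalytic beta subunits of the 20S core, 3 constitutive and 3 immunoproteasome catalytic beta subunits, 6 ATPases and 11 other subunits of the 19S particle, 4 activators, 1 inhibitor and 8 assembly factors. The other 2, PSMC3IP and PSME3IP1, carry the prefix because their products bind PSMC3 and PSME3, and they are not subunits. The protein-coding gene PSMB11, a beta subunit of the thymus, has 0 junctions listed, and 11 identifiers with the prefix that are not protein-coding were left out.

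K562 is an established human line of erythroid character that came from a chronic myelogenous leukemia. HepG2 is an established human line of hepatocyte character that came from a liver tumor. Ribosome footprints, the stretches of messenger RNA that ribosomes shield from nuclease, were sequenced from 2 samples of K562 and 2 samples of HepG2. Both lines were lysed with cycloheximide present, and no treatment is named in the labels of either line. The samples of a line share 1 pooled table, so no value has a replicate error, no test between lines was possible, and every interval below covers counting error only. Footprint reads rise with the amount of a messenger RNA and with the ribosomes on it, and the 2 cannot be told apart in these tables.

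The proteasome degrades proteins marked with ubiquitin. Its 20S core is a barrel of alpha rings around beta rings, with proteolytic sites in the subunits beta1, beta2 and beta5, and the 19S particle binds, unfolds and feeds in substrates. Interferon and lymphoid cells are known to replace the constitutive catalytic subunits PSMB6, PSMB7 and PSMB5 with PSMB9, PSMB10 and PSMB8, which forms the immunoproteasome and alters the peptides offered to T cells.

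K562 had 7487508 uniquely mapped junction reads (74.0% of its mapped junction reads) and HepG2 had 9927809 (82.7%). Marker genes went with the labels. Reads of the 6 erythroid markers summed to 11372 in K562 against 0 in HepG2, and reads of the 6 hepatocyte markers summed to 248 in K562 against 966757 in HepG2. The methylthioadenosine phosphorylase gene MTAP, deleted in K562, had 0 reads in K562 against 249 in HepG2. Of 7 markers of T, B and myeloid cells, which make immunoproteasomes constitutively, CD2, MS4A1 and CSF1R had 0 uniquely mapped reads in both lines, and the reads of all 7 summed to 102 in K562 against 13 in HepG2, of which the myeloid factor gene SPI1 gave 80 in K562 against 0 in HepG2.

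Each count is a read that crosses a junction, so the members can be shown by the letters that such a footprint reads. The paired catalytic subunits are paralogs. PSMB9 and PSMB6 have 5 coding junctions each and PSMB10 and PSMB7 have 7 each, so their windows are set side by side by junction number. PSMB8 has 5 and PSMB5 has 2, so the beta5 windows below are not matched positions. The first coding junction of PSMB9 and PSMB6 falls just before the codon of the threonine that becomes the catalytic residue. In the windows below, the last 15 bases of one exon are in lower case and the first 15 bases of the next are in capitals.
PSMB9 junction 1, beta1: gaagtccacaccgggACCACCATCATGGCA
PSMB6 junction 1, beta1: gaagtttccactgggACCACTATCATGGCC
PSMB10 junction 3, beta2: cgcccccaaaatctaCTGCTGTGGGGCTGG
PSMB7 junction 3, beta2: atctcctaatatttaTTGTTGTGGTGCTGG
PSMB8 junction 5, beta5: gaggcgttgtcaataTGTACCACATGAAGG
PSMB5 junction 2, beta5: ataagagaggccctgGCCTCTACTACGTGG
The introns removed are, in GRCh38, chr6:32854290-32856137 (plus strand) for PSMB9, chr17:4796297-4796727 (plus) for PSMB6, chr16:67936104-67936214 (minus) for PSMB10, chr9:124412493-124413907 (minus) for PSMB7, chr6:32841048-32841530 (minus) for PSMB8 and chr14:23026376-23033367 (minus) for PSMB5. At the same junction number, PSMB9 and PSMB6 shared 11 to 24 of 30 bases over their 5 coding junctions, and PSMB10 and PSMB7 shared 14 to 22 of 30 over 7. The windows of a pair therefore differ at 6 bases or more, and in both lines 93.4% or more of the reads of these 4 genes mapped uniquely.

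Of the 50 genes, 47 had 20 or more uniquely mapped reads at junctions of their own over both tables. PSMA8, the alpha subunit of testis, had 0 reads in both lines, PSMA2 shares 8 of its 12 junctions with another gene, and PSMC1 reads map to several places. Libraries were scaled by TMM, and a gene counts as higher in 1 line if its ratio lies past a stated fold with all of its 95% interval. Past 2-fold, 5 of the 47 were higher in K562 and 8 were higher in HepG2, while 16.8% and 21.9% of the 10956 genes measured passed the same rule. Past 1.5-fold the counts were 12 of 47 higher in K562 and 8 of 47 higher in HepG2, beside 24.1% and 28.2% of all genes. The median log2 ratio of the 47 was 0.19, against -0.01 over all genes measured. With scaling by total reads the median of all genes would be 0.41 in place of -0.01, so each ratio is relative to the typical gene. Under that scaling 11 of the 22 members below 0 turn positive, none of them past 1.5-fold here. The shares of members counted were thus close to or below those of all genes, and the results that follow concern which members differed.

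**Figure D1:**
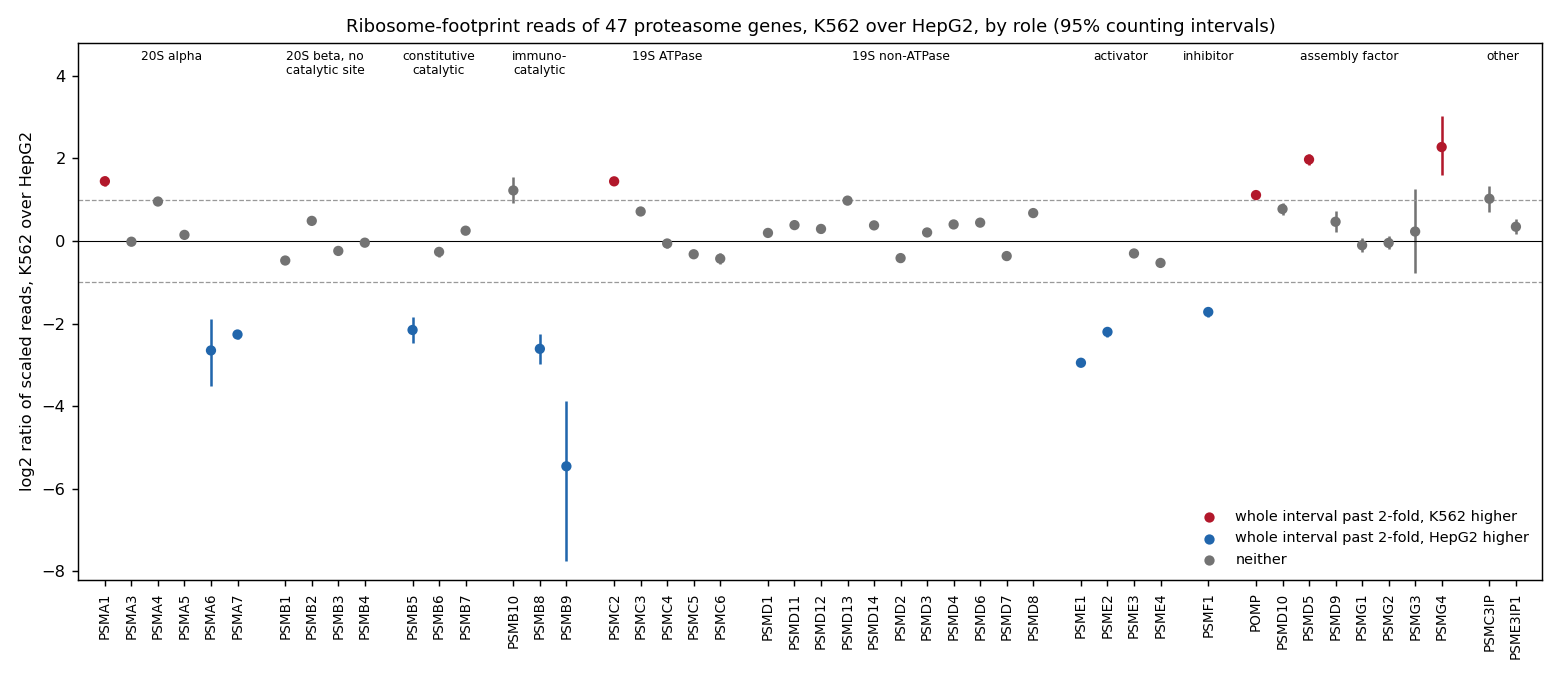
The log2 ratio of scaled, uniquely mapped footprint reads of K562 over HepG2 is plotted for the 47 measured genes by role, with 95% counting intervals; points above 0 are higher in K562, and dashed lines mark 2-fold. Most 20S and 19S subunits lie between the lines, PSMB9 (-5.46), PSME1 (-2.95) and PSMB8 (-2.61) lie far below, and PSMG4 (2.27) and PSMD5 (1.97) lie highest.

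The immunoproteasome subunits did not move together between the lines. PSMB9, the beta1 subunit encoded within the major histocompatibility complex, had 3 reads in K562 against 131 in HepG2. Its ratio of K562 to HepG2 was 0.0228 (95% interval 0.00464 to 0.0681), the lowest of all measured members. PSMB8, the beta5 subunit from the same gene cluster, had 73 reads in K562 against 444 in HepG2, for a ratio of 0.164 (0.126 to 0.210). PSMB10, the beta2 subunit, went the other way, with 279 reads in K562 against 119 in HepG2 and a ratio of 2.33 (1.88 to 2.92). That interval reaches under 2, so PSMB10 is counted past 1.5-fold only. With the junctions it shares with a neighbouring gene, PSMB10 had 521 reads in K562 against 239 in HepG2, a log2 ratio of 1.13 against 1.22 without them.

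The constitutive partners differed less, with 1 exception. PSMB6 (beta1) had 986 reads in K562 against 1179 in HepG2, for a ratio of 0.832 (0.764 to 0.907). PSMB7 (beta2) had 3256 reads in K562 against 2728 in HepG2, for a ratio of 1.19 (1.13 to 1.25). Neither passed 1.5-fold. PSMB5 (beta5, the site that the drug bortezomib binds most strongly) had 104 reads in K562 against 461 in HepG2. Its ratio was 0.225 (0.180 to 0.278), so both beta5 genes, constitutive and immune, were lower in K562.

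Within a line, the 2 subunits of a pair can be set side by side as uniquely mapped reads per coding junction, which removes gene length and library scaling. At beta1, PSMB9 made up 0.303% (0.0626% to 0.884%) of the pair's level in K562 and 10% (8.43% to 11.8%) in HepG2. At beta2, PSMB10 made up 13.8% (12.7% to 15%) in K562 and 8.06% (7.11% to 9.10%) in HepG2. At beta5, PSMB8 made up 38.5% (29.9% to 48.1%) in K562 and 35.6% (32.3% to 39.0%) in HepG2. The intervals do not overlap at beta1 and beta2, where the order of the lines is opposite, and they overlap at beta5. The beta1 order held under each alternative tried, while the beta2 order was lost with the median junction in place of the mean (6.73% in K562 and 6.86% in HepG2). The beta5 share rests on few junctions, since PSMB5 has only 2 coding junctions, and its order between the lines depends on the setting. It was 61.0% in K562 and 58.0% in HepG2 without dividing by junction number. It was lower in K562 with all mapped reads (29.7% in K562, 33.5% in HepG2), with the median junction (37.8% in K562, 39.8% in HepG2) and without the most-read junction (30.9% in K562, 48.6% in HepG2).

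**Figure D2:**
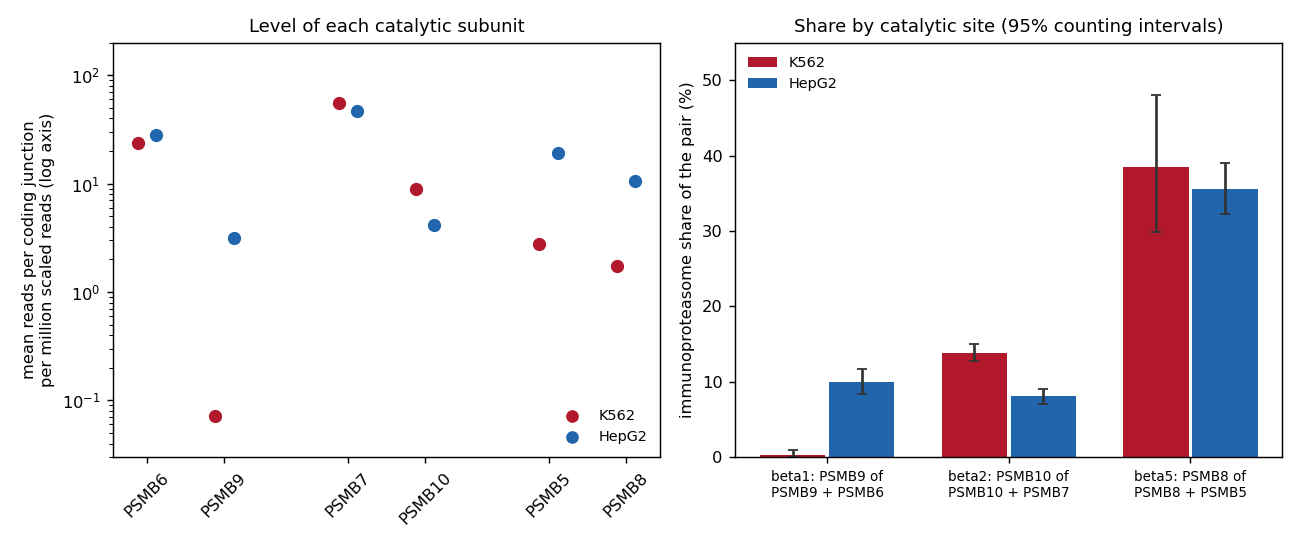
Left, mean reads per coding junction per 1000000 scaled reads (log axis) of the 6 catalytic subunits in K562 and HepG2; right, the share of each pair's level that came from the immunoproteasome subunit, with 95% counting intervals. PSMB9 in K562 stands lowest on the left at 0.072, and on the right the beta5 shares of 38.5% and 35.6% overlap while the beta1 and beta2 shares do not.

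Reads along each gene show how evenly a difference was spread. PSMB9 had reads at 1 of its 5 coding junctions in K562, all 3 of them at junction 3, which also held 100 of the 131 reads in HepG2. PSMB8 was lower in K562 at junctions 2 to 5, where K562 had 7, 13, 16 and 22 reads against 38, 105, 143 and 147 in HepG2. At PSMB8 junction 1, which starts from 1 of 2 alternative first exons, the order was opposite, with 14 reads in K562 against 5 in HepG2. Each of the 4 PSMB10 junctions with 10 or more reads was on the K562 side.

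PSMB5 was 1 of only 2 members whose splicing differed by the rule used, which asked for 20 percentage points between shares at a splice site and intervals that do not overlap. Over all members, 5 of 206 junctions tested passed (2.43%), beside 4.66% of the 20992 junctions tested in all genes. At the donor of its second coding exon, the junction that ends at the usual last exon, shown above, drew 18 of 52 reads in K562 (34.6%, interval 22% to 49.1%) against 240 of 336 in HepG2 (71.4%, interval 66.3% to 76.2%). The junction to an exon in between (chr14:23027830-23033367) drew 28 of 52 reads in K562 (53.8%) against 79 of 336 in HepG2 (23.5%). The usual junction was the one that differed most in reads, at a log2 ratio of -3.74. The second gene was PSMC3IP, where a junction from an untranslated first exon accounted for 23 of the 79 acceptor reads in K562 and for 0 of 43 in HepG2, a count that allows a share up to 8.22% (exact binomial).

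**Figure D3:**
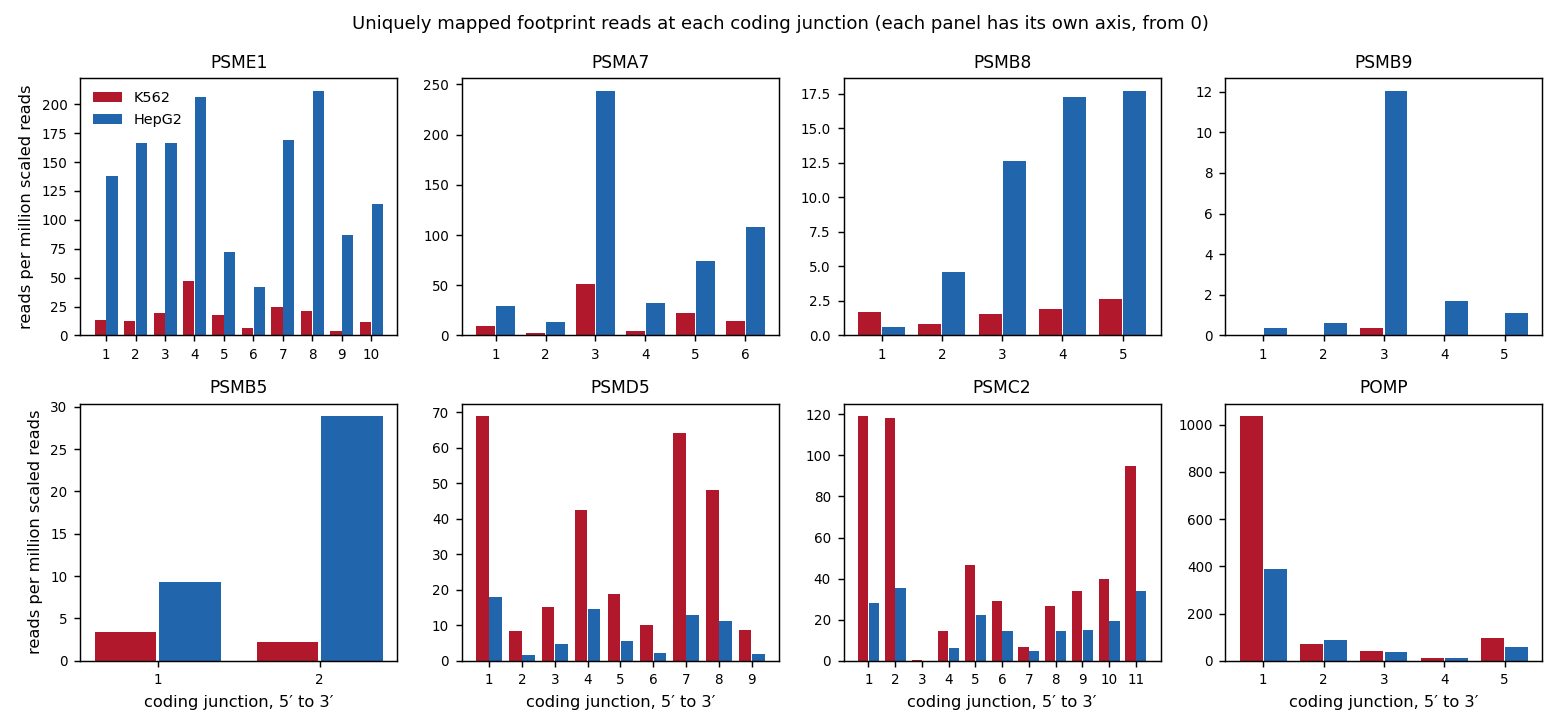
Uniquely mapped reads per 1000000 scaled reads at each coding junction, 5′ to 3′, for 8 members in K562 and HepG2, each panel with its own axis from 0. HepG2 is higher at every junction of PSME1 and PSMA7, K562 is higher at every junction of PSMD5, the difference in PSMB8 turns round at junction 1, and the K562 excess of POMP lies mostly in junction 1.

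Of the 4 activators, 2 were lower in K562 past 2-fold. PSME1 and PSME2 form the ring PA28 alpha-beta, which interferon induces together with the immunoproteasome and which opens the 20S core without ATP. PSME1 had 1488 reads in K562 against 11437 in HepG2, for a ratio of 0.130 (0.123 to 0.137), and all 11 of its junctions with 10 or more reads were higher in HepG2. PSME2 had 696 reads in K562 against 3187 in HepG2, for a ratio of 0.217 (0.20 to 0.236). Both subunits of the ring were thus lower in K562. The nuclear activator PSME3 had 3251 reads in K562 against 3992 in HepG2 (ratio 0.811, 0.774 to 0.849), and PSME4, a large single-chain activator, had 2349 in K562 against 3381 in HepG2 (ratio 0.692, 0.656 to 0.729). Neither passed 1.5-fold. Per coding junction, PSME1 stood at 0.459 times PSME3 in K562 and at 2.86 times PSME3 in HepG2, so the order of these activators turned round between the lines.

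PSME2 also shows how mapping limits these counts. Only 27.5% of its reads in K562 and 26.3% in HepG2 mapped uniquely, against 98.5% and 99.6% of PSME1 reads. The windows of junction 4 are given for both genes, because that of PSME2 occurs letter for letter in an annotated pseudogene.
PSME1 junction 4: aagaaacagcaggagAAGGAAGACAAGGAT
PSME2 junction 4: cccaaggatgatgagATGGAAACAGATAAG
At the PSME2 window (intron chr14:24145274-24145378, minus strand) 0 reads mapped uniquely in either line, while all mapped reads came to 544 in K562 against 2232 in HepG2. At the PSME1 window (intron chr14:24137432-24137519, plus strand) 392 uniquely mapped reads were counted in K562 and 1708 in HepG2. With all mapped reads, PSME2 had 2530 in K562 against 12111 in HepG2, the same order as the uniquely mapped reads. PSME1 over PSME2 per junction was then 0.597 in K562 and 0.945 in HepG2.

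PSMF1 (PI31), which inhibits the 20S core in the test tube, was lower in K562 as well. It had 665 reads in K562 against 2180 in HepG2, for a ratio of 0.304 (0.278 to 0.331), and 6 of its 7 junctions with 10 or more reads were on the HepG2 side.

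The non-catalytic beta subunits of the core all lay within 1.5-fold. The 4 non-catalytic beta subunits had log2 ratios from -0.47 (PSMB1, 6690 reads in K562 against 9247 in HepG2) to 0.49 (PSMB2, 6087 in K562 against 4326 in HepG2). PSMB3 was at -0.24 and PSMB4 at -0.04. PSMB1 was nevertheless lower in K562 at each of its 5 junctions, and its log2 ratio was -0.67 without its most-read junction.

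The 7 alpha subunits that build the outer rings varied more. PSMA7 had 868 reads in K562 against 4151 in HepG2, for a ratio of 0.208 (0.193 to 0.224), and each of its 6 junctions was lower in K562. PSMA1 had 1929 reads in K562 against 705 in HepG2, for a ratio of 2.72 (2.5 to 2.97). That count leaves out the 7 junctions PSMA1 shares with another gene, and with them it had 13570 reads in K562 against 5513 in HepG2 and a log2 ratio of 1.30. PSMA4 had 6920 reads in K562 against 3554 in HepG2, for a ratio of 1.94 (1.86 to 2.02), higher in K562 at each of 11 junctions. PSMA3 (6686 in K562, 6742 in HepG2) and PSMA5 (3155 in K562, 2836 in HepG2) did not pass 1.5-fold. PSMA2, counted with its shared junctions, had 4231 reads in K562 against 3727 in HepG2, a log2 ratio of 0.19.

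PSMA6 cannot be placed with the same care. At junctions of its own it had 16 reads in K562 against 100 in HepG2, for a ratio of 0.159 (0.0877 to 0.271). With shared junctions its log2 ratio was -0.70, and with shared junctions and all mapped reads, a combination added after the data were seen, it was -2.19. Windows of 5 of its 6 coding junctions occur letter for letter in pseudogenes, and only 16.8% of its reads in K562 and 6.07% in HepG2 mapped uniquely.

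The ATPases of the 19S particle, which form the ring that unfolds substrates, held 1 member past 2-fold. PSMC2 had 4415 reads in K562 against 1616 in HepG2, for a ratio of 2.72 (2.57 to 2.88), and it was higher in K562 at all 10 junctions with 10 or more reads. PSMC3 had 3932 reads in K562 against 2387 in HepG2, for a ratio of 1.64 (1.56 to 1.73), but by all mapped reads (log2 ratio 0.58) it did not pass 1.5-fold. PSMC4 (1322 in K562, 1373 in HepG2), PSMC5 (3682 in K562, 4581 in HepG2) and PSMC6 (757 in K562, 1014 in HepG2) lay within 1.5-fold. Only 23.8% of PSMC6 reads in K562 and 27.8% in HepG2 mapped uniquely. By all mapped reads its log2 ratio was -0.23, against -0.43 by uniquely mapped reads. For PSMC1 a level can be given from all mapped reads alone, with 3979 in K562 against 2740 in HepG2, against 3 and 0 that were unique.

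The windows of PSMC1 and PSMC2 show where uniqueness was lost. The first is the PSMC1 junction with the most reads, the second is the PSMC1 junction right after the start codon, and the third is the PSMC2 junction with the most mapped reads.
PSMC1 junction 2: aagaaggatgacaagGACAAGAAAAAGAAA
PSMC1 junction 1: ggccaaggcaagatgGGTCAAAGTCAGAGT
PSMC2 junction 3: ttaatgagctcactgGTATTAAAGAATCTG
At PSMC1 junction 2 (intron chr14:90259214-90260114, plus strand), whose letters occur in the pseudogene PSMC1P1, 1775 reads mapped in K562 and 1213 in HepG2, and 0 were unique in either line. PSMC1 junction 1 (chr14:90256601-90259159) had no pseudogene match within 2 mismatches, and 0 of its 74 reads in K562 and 0 of its 51 in HepG2 were unique. At PSMC2 junction 3 (chr7:103354950-103355693, plus strand), 1 of 1696 mapped reads was unique in K562 and 0 of 542 in HepG2. Over all members, windows without such a match had 96.9% unique reads in K562 and 97.1% in HepG2, and windows with an exact match had 11.3% in K562 and 13.8% in HepG2. The exact matches were 50 of 434 coding junctions.

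The 11 other subunits of the 19S particle among the members were close together, and none of them passed 2-fold. Their median log2 ratio was 0.38, with PSMD2, the large scaffold subunit, lowest at -0.41 (1737 reads in K562 against 2305 in HepG2). PSMD13 was highest, with 5383 reads in K562 against 2723 in HepG2 and a ratio of 1.97 (1.88 to 2.06), and it was higher in K562 at all 13 junctions with 10 or more reads. PSMD8 had 3231 reads in K562 against 2014 in HepG2, for a ratio of 1.60 (1.51 to 1.69), and these 2 alone passed 1.5-fold. PSMD8 no longer passed with all mapped reads (log2 ratio 0.60), without its most-read junction (0.54), with the chromosome median taken away (0.28), with the minimum of 1 read or with 99% intervals. PSMD14, the deubiquitinase that strips ubiquitin chains from substrates, had 4678 reads in K562 against 3585 in HepG2, for a ratio of 1.30 (1.24 to 1.36). PSMD4, a ubiquitin receptor, had 1963 reads in K562 against 1481 in HepG2, and without its most-read junction its log2 ratio was -0.10 against 0.40 with it. The remaining members of this group lay between -0.37 (PSMD7) and 0.44 (PSMD6).

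Of the 8 assembly factors, 3 were higher in K562 past 2-fold and 0 in HepG2 by the interval rule, beside 16.8% and 21.9% of all genes. Their median log2 ratio was 0.62. The 3 were PSMD5, PSMG4 and, with the limit given below, POMP. PSMD5 (S5b), a chaperone of the 19S base, had 2376 reads in K562 against 603 in HepG2. Its ratio was 3.92 (3.59 to 4.30), and each of its 9 junctions was higher in K562, by log2 ratios of 1.54 to 2.32. PSMD10 (gankyrin), a second base chaperone, had 984 reads in K562 against 573 in HepG2, for a ratio of 1.71 (1.54 to 1.90), while PSMD9, the third, had 305 in K562 against 220 in HepG2 (1.38, 1.16 to 1.65). PSMD5 thus stood apart from the other base chaperones in size. For PSMD10, leaving out the most-read junction gave a log2 ratio of 0.34, which did not pass 1.5-fold, against 0.77 with it.

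Among the chaperones of the 20S core, PSMG1 and PSMG2, which pair with each other, lay within 1.5-fold. PSMG1 had 561 reads in K562 against 600 in HepG2, and PSMG2 had 667 in K562 against 686 in HepG2. PSMG4, which pairs with PSMG3, had 102 reads in K562 against 21 in HepG2, for a ratio of 4.83 (3.0 to 8.14), the highest of all measured members. PSMG3 had 20 reads in K562 against 17 in HepG2, and its interval of 0.583 to 2.38 is too wide to place it.

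POMP, which the nascent beta rings need to mature, had the most reads of any member in K562 at junctions of its own. It had 10509 reads in K562 against 4842 in HepG2, for a ratio of 2.16 (2.09 to 2.24). Most of these reads lie at its first coding junction, which follows the start codon directly and is shown with the next junction.
POMP junction 1: gagctgcggaagatgAATGCCAGAGGACTT
POMP junction 2: tcttcttcggaaaggTTTTTCTTGTGTGAA
At junction 1 (intron chr13:28659188-28662409, plus strand) 8650 reads were counted in K562 and 3228 in HepG2. At junction 2 (intron chr13:28662508-28664508) the order was opposite, with 575 in K562 against 734 in HepG2. Leaving out its most-read junction gave POMP a log2 ratio of 0.24, and with junctions at least 60 coding bases past the start codon, an alternative added after the data were seen, it was 0.30. POMP therefore does not pass 1.5-fold away from the start codon. Under both of these alternatives the number counted past 2-fold toward K562 over all members was again 5, with POMP no longer among them. Ribosome density near start codons can differ from that in the body of a gene, and its part in this result was not tested.

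The 2 genes taken by symbol only did not pass 2-fold. PSMC3IP, known in homologous recombination, had 255 reads in K562 against 125 in HepG2 (ratio 2.03, 1.63 to 2.54), and PSME3IP1 had 537 in K562 against 421 in HepG2 (1.27, 1.12 to 1.45).

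Levels can be compared between genes only per coding junction, and the values in this paragraph are uniquely mapped reads per coding junction per 1000000 scaled reads unless all mapped reads are named. The 14 constitutive 20S subunits, which enter the core in equal numbers, had a median of 76.1 in K562 and 68.9 in HepG2. The 17 subunits of the 19S particle among the members had a median of 28.4 in K562 and 24.7 in HepG2. PSMC1 enters these medians at 0, because its reads map to several places. By all mapped reads the 20S median was 63.6 in K562 and 62.9 in HepG2. The 19S median was then 35.3 in K562 and 24.4 in HepG2. Levels were far from equal within the core. With all mapped reads, they ran from 3.31 (PSMB5) to 142.1 (PSMA1) in K562, a 42.9-fold span. In HepG2 they ran from 17.2 (PSMB5) to 193.7 (PSMA6), an 11.3-fold span. PSMA6 stood at 14.1 by uniquely mapped reads in HepG2, and its other mapped reads may come from pseudogenes. PSMB5 was lowest in both lines by all mapped reads, but its level is a mean over 2 coding junctions. In K562, 1 of these drew only 18 of 52 donor reads. The next lowest levels were 13.8 (PSMA7) in K562 and 23.1 (PSMB6) in HepG2. The 19S subunits were closer together, spanning 4.18-fold in K562 and 3.08-fold in HepG2 by all mapped reads.

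A span over genes must be read against the spread over junctions of 1 gene, because footprints pile up unevenly. Over the 45 members with 5 or more coding junctions and a level above 0, the SD over junctions had a median of 77.9% of the gene's mean in K562 and 80.5% in HepG2. In the order of these 45 levels, the gap between neighbours was within the larger of their SDs for 43 of 44 pairs in K562 and 44 of 44 in HepG2. The exception was PSMB9 below PSMB8 in K562. With 45 levels in order, neighbours lie close together, so this count cannot tell whether genes further apart differ. The SD over junctions is also not the error of a gene's mean. PSMB5, with 2 coding junctions, is not among the 45. The order of levels was similar between lines, with Spearman's rho 0.78 and Pearson's r 0.75 on the log2 scale over 48 genes, which are not independent and share their junction positions and annotation. All members together held 1.68% of single-gene reads in K562 and 1.23% in HepG2.

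**Figure D4:**
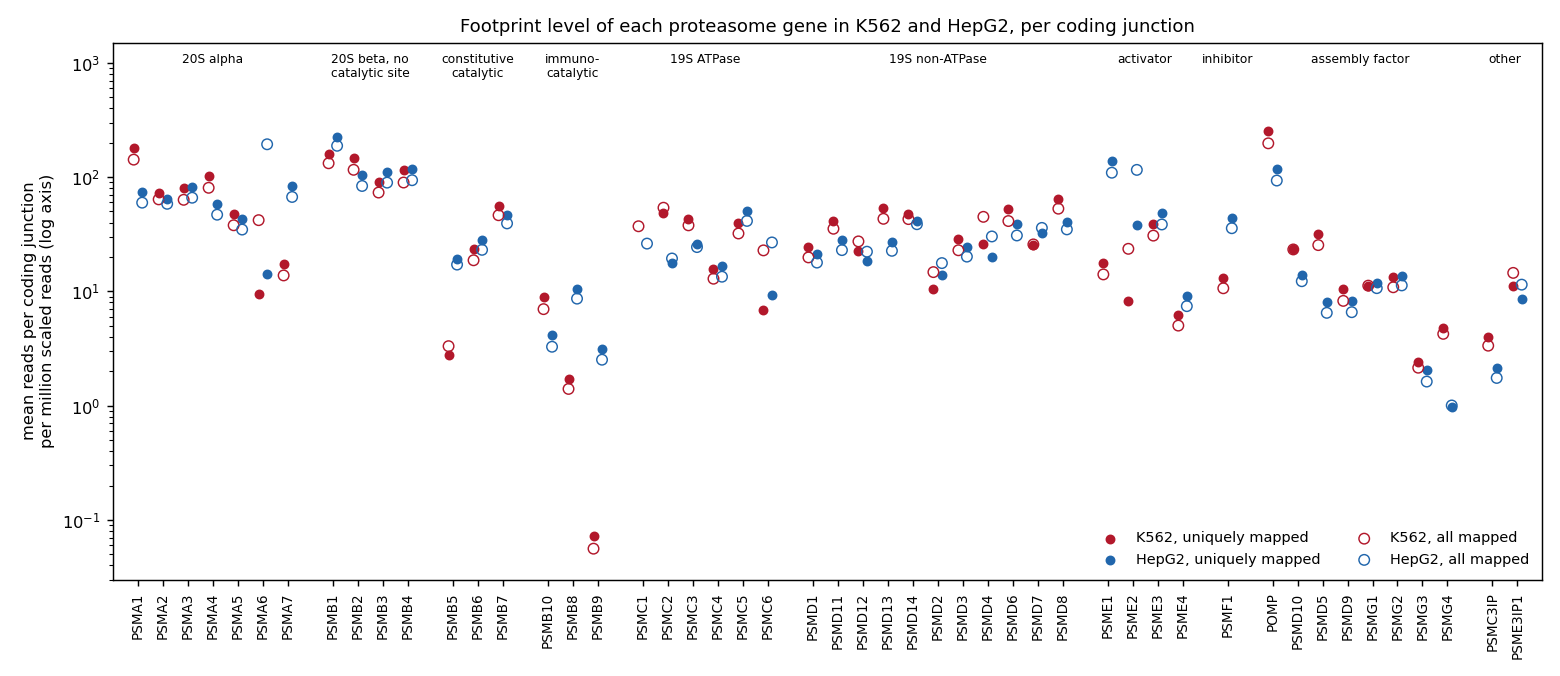
Mean reads per coding junction per 1000000 scaled reads (log axis) for the members with mapped reads, by role, with filled points for uniquely mapped and open points for all mapped reads in K562 and HepG2. The 20S subunits mostly lie above the 19S subunits, the immunoproteasome subunits lie lowest among the catalytic ones in HepG2 while PSMB5 lies below PSMB10 in K562, and open points far above filled ones mark PSMA6, PSMC1, PSMC6 and PSME2; PSMC1 has no filled point because its uniquely mapped level is 0.

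The members lower in K562 are not spread evenly over the genome. Of the 8 past 2-fold, 4 lie on chromosome 14 (PSMA6, PSMB5, PSME1 and PSME2), 2 on chromosome 20 (PSMA7 and PSMF1) and 2 on chromosome 6 (PSMB8 and PSMB9). PSMA6 carries the limit given above, since with shared junctions and uniquely mapped reads it did not pass, and 7 members did. The other genes of these chromosomes give the scale. On chromosome 20 the median log2 ratio of 299 other genes was -1.31, and 49.2% of them passed 2-fold toward HepG2. On chromosome 14 it was -0.77 over 361 genes, with 34.3% past 2-fold toward HepG2, and on chromosome 6 it was 0.08 over 563 genes, with 22%. The 8 measured members on chromosomes 14 and 20 had a median of -2.18, and the 39 elsewhere had a median of 0.29, with 14 of them below 0.

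With the median of the chromosome taken away, PSMF1 stood at -0.41 and PSMA7 at -0.96, and neither passed 2-fold any longer. PSME1 (-2.18), PSMA6 (-1.88, by its own junctions), PSME2 (-1.43) and PSMB5 (-1.39) on chromosome 14 still did. The activator group's median was -0.77 on this scale, against -1.37 before. PSMB8 (-2.69) and PSMB9 (-5.54) on chromosome 6 hardly changed, nor did PSMD5 (1.98) and PSMG4 (2.19). PSMB10 (1.55) and PSMC3IP (1.42) passed 2-fold toward K562 on this scale, while PSMC2 (1.02) did not.

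Closer neighbours were read in a window of 1 Mb on either side that was chosen after the data were seen. For the chromosome 14 members they gave a different picture from the chromosome median. Around PSME1 and PSME2, 25 of 29 other genes were below 0 with a median of -2.01, near the value of PSME2 itself (-2.20). Around PSMB5 the median of 23 genes was -1.39, around PSMA6 that of 15 genes was -1.69, and around PSMA7 that of 17 genes was -1.67. These members thus sit among genes that were also lower in K562. On chromosome 14 these neighbour medians lay below that of the whole chromosome (-0.77). The log2 ratios of PSME1 (-2.95), PSMA6 (-2.65, by its own junctions), PSME2 and PSMB5 (-2.15) were less than 2-fold below them. Around PSMB8 and PSMB9 the median of 41 genes was 0.19, with 23 above 0 and 18 below. Around PSMD5 the median of 11 genes was -0.21, and around PSMG4 that of 16 genes was 0.01. These 4 members thus differed from the median of their neighbours. Single neighbours could still go the same way, since TAP1, encoded next to PSMB9, stood at -4.47. PSMC2 lay among 13 genes with a median of 1.09. What the region contributes to each ratio was not tested.

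**Figure D5:**
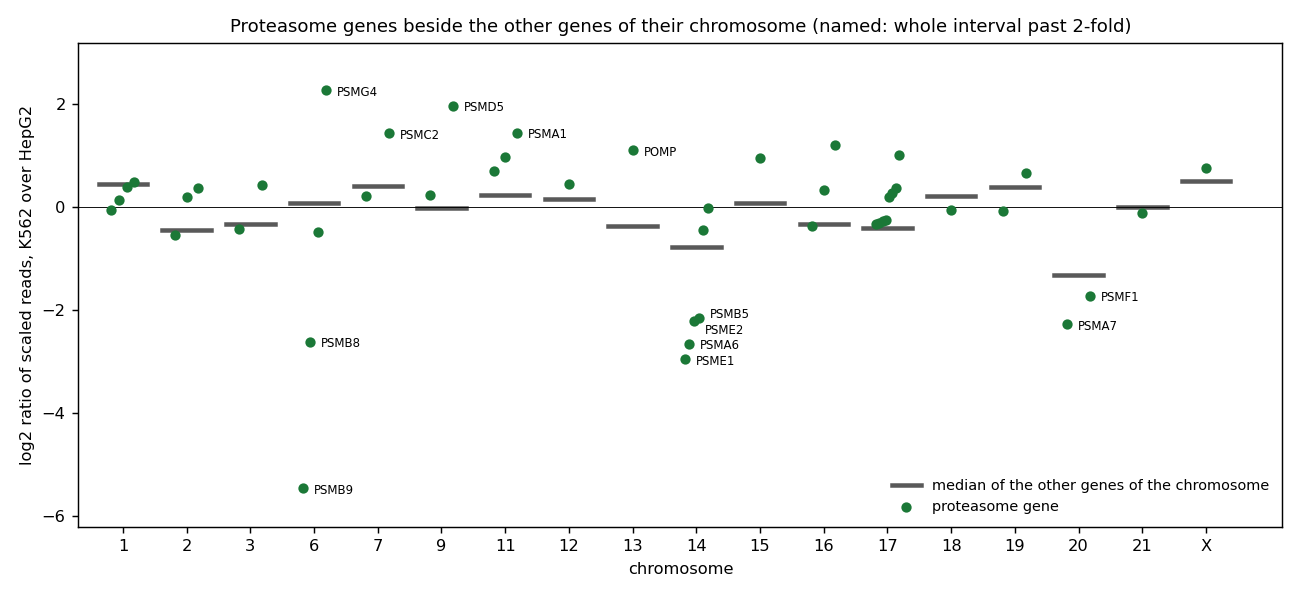
The log2 ratio of K562 over HepG2 is plotted for each measured member by chromosome (green points), beside the median of the other genes of that chromosome (grey bars); members past 2-fold are named. The grey bars of chromosomes 14 (-0.77) and 20 (-1.31) lie lowest, and PSMB8 and PSMB9 on chromosome 6 lie far below a bar near 0.

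Promoters were read for the interferon-stimulated response element, the DNA element through which interferon acts on immunoproteasome genes. Its core was searched on both strands as GAAANNGAAA from 250 bases before to 50 after the RefSeq start site (GRCh38.p14), and 44 members had a promoter in that table. The first start site listed for a gene was used. The core was found in 6 of the 44, beside 3.65% of 27305 promoters of all genes. In 3 of them, shown with the core in capitals, the letters of the core were the same on the gene's strand.
PSMB10: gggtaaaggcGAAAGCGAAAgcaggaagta
PSME2: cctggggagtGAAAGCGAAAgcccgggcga
PSMG4: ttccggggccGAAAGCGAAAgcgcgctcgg
These lie at chr16:67936852-67936881 (minus strand), chr14:24146619-24146648 (minus) and chr6:3258904-3258933 (plus). The core begins 21 bases before the start site in PSMB10, 28 in PSME2 and 33 in PSMG4. The 3 genes did not go the same way, since PSMB10 and PSMG4 had more reads in K562 and PSME2 fewer. PSME1, PSMA4 and PSMB4 held the core with other letters or place. PSMB9 and PSMB8 were among the 44, and the core was not in the window read for either. PSMB8 has 2 start sites listed, and the core lies in the window of the other one. With every listed start site read, an alternative added after the data were seen, 7 of 44 members held the core, beside 4.38% of all genes. A match of letters is not a binding site, and no match says only that these letters are not in the window. The interferon-gamma activated core TTCNNNGAA was in 5 of 44 members beside 7.88% of all promoters, and the antioxidant core TGACNNNGC was in 13 of 44 beside 13.6%.

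Genes that act with the immunoproteasome in antigen processing and interferon signalling include members on both sides. Of 19 in the list, 15 were measured, with a median log2 ratio of -0.50. Of the 15, 2 passed 2-fold toward K562 and 4 toward HepG2, beside 16.8% and 21.9% of all genes, so the counts show nothing particular to the list. TAP1, the peptide transporter subunit encoded next to PSMB9, had 11 reads in K562 against 242 in HepG2, for a ratio of 0.0452 (0.0223 to 0.0824). ERAP2, a peptidase that trims peptides in the endoplasmic reticulum, had 14 reads in K562 against 238 in HepG2 (0.0586, 0.0315 to 0.100). These 2 were nearest in size to PSMB9. IRF2 (177 in K562, 560 in HepG2) and the interferon-gamma receptor gene IFNGR2 (42 in K562, 129 in HepG2) were also lower in K562. The interferon-response factor IRF1 was higher in K562, with 277 reads against 106 in HepG2 (2.6, 2.07 to 3.29), as was the kinase gene JAK2, with 156 against 52 in HepG2 (2.99, 2.17 to 4.17). B2M (3418 in K562, 3116 in HepG2) and JAK1 (1188 in K562, 1260 in HepG2) did not pass 2-fold.

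The partners of the constitutive proteasome showed no common shift. Of 22 partners and regulators, 21 were measured, with a median log2 ratio of -0.07. Past 2-fold by the interval rule were 2 toward K562 and 0 toward HepG2, beside 16.8% and 21.9% of all genes. The 2 were the deubiquitinase UCHL5, with 3419 reads in K562 against 1430 in HepG2 (2.38, 2.24 to 2.53), and PITHD1, with 1264 in K562 against 299 in HepG2 (4.21, 3.71 to 4.79). The unfoldase VCP had 3342 reads in K562 against 6381 in HepG2, for a ratio of 0.521 (0.50 to 0.544). The deubiquitinase USP14 (4972 in K562, 2632 in HepG2) and the small 19S subunit SEM1 (4207 in K562, 2553 in HepG2) were toward K562 without passing 2-fold. The ubiquitin-activating enzyme UBA1 had 3506 reads in K562 against 4920 in HepG2.

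Reads of the members lay almost wholly at coding junctions when a junction that is coding in any transcript is classed as coding. The coding share was 97.9% in K562 and 98.7% in HepG2, and the 5′ untranslated share was 1.59% in K562 and 0.549% in HepG2. Over all genes the 5′ untranslated share was 6.54% in K562 and 3.29% in HepG2. With untranslated annotations given precedence, the coding share of members was 26.3% in K562 and 20.4% in HepG2, since most of these junctions have a noncoding or untranslated annotation in some transcript. The 5′ reads were concentrated in 2 genes. PSMD14 had 1070 reads in K562 against 470 in HepG2 at chr2:161316570-161318821 (plus strand), and PSMA4 had 792 in K562 against 110 in HepG2 at chr15:78540540-78541904 (plus strand).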

How the data were processed

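Footprints were sequenced in 4 samples, 2 of K562 and 2 of HepG2. Per the file headers, the deposited tables give whole-number counts for each annotated splice junction, once for uniquely mapped and once for all mapped reads, where a read may count at several places; per the labels, both samples of a line share 1 table. cutadapt, Bowtie2, STAR 2.6.0 and GRCh38 are named in the submitters' processing notes; their roles and the annotation release are not given there.

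Junctions were matched to GENCODE release 29 introns (350016, 99.8%); 34661 of 35316 identifiers matched the symbol table. Each gene was given the sum of its uniquely mapped reads, leaving out junctions of several genes, and sums of 20 or more were kept. TMM factors from edgeR 4.0.16 were 1.16 (K562) and 0.865 (HepG2). Ratios carry exact 95% conditional binomial (Clopper-Pearson) intervals; a count of 0 was set to 3. Without molecular identifiers, reads are not independent molecules, and intervals cover counting error only. The level of a gene is its mean over the coding junctions of the transcript with the most reads, junctions shared with another gene included. Windows of 30 bases from GENCODE transcripts were compared with pseudogene transcripts, allowing 2 mismatches. Promoters came from RefSeq. The ratio and share rules were tested on simulated data.

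Every member was accounted for; ratios are given for catalytic subunits, activators, members past 1.5-fold and the extremes of each role. From other lists, the 3 genes with the most reads and those past 2-fold could be named; some of these are not reported here. Members and lists were chosen with earlier results of these data known. Alternatives covered scaling (total reads, DESeq2 1.42.0 size factors), mapping, read minimum, shared, coding and most-read junctions, the chromosome median and 99% intervals.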

Additional observations from a re-analysis of the deposited data

Results flagged for a closer look

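Reads outside the comparisons exceeded the limit of 3 that a count of 0 allows in the following places. PSMA3-AS1, an antisense gene beside PSMA3, had 170 uniquely mapped reads in K562 and 92 in HepG2, and PSMG3-AS1 had 31 in K562 and 15 in HepG2. Whether the counting used strand is not given in the sources used here, so reads of a gene and its antisense partner may not be separable. PSMC1, whose uniquely mapped reads were 3 in K562 and 0 in HepG2, had 3979 in K562 and 2740 in HepG2 in the column of all mapped reads. With 1 pooled table per line, no group of samples could be searched for a sample far from the others.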

How the results depend on the processing

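No paired analysis was possible because the columns carry no replicate number, and for the same reason no sample could be left out. Of 561 alternative ratios of single members under 12 settings, 529 kept their side of 1.5-fold, 16 passed only under the alternative and 16 no longer passed. The sign changed in 34, of which 11 came with scaling by total reads and 9 with the chromosome median taken away. Among these 34, 0 belong to members past 1.5-fold, and their log2 ratios as reported were at most 0.43 in size. The largest under the alternative was 0.75, for PSMA3 with the chromosome median taken away. Under 12 alternatives, members past 2-fold numbered 5 to 12 higher in K562 and 6 to 8 higher in HepG2. Scaling by total reads gave 12 members higher in K562 past 2-fold (main 5) and 20 past 1.5-fold (main 12). It also moved the median of all genes to 0.41 on the log2 scale, so that all ratios shifted toward K562 together. The activator median was -0.77 after the chromosome median was taken away.

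For beta1, the PSMB9 share was 0% in K562 and 5.03% in HepG2 with the median junction, and 0% in K562 and 4.78% in HepG2 without the most-read junction. For beta2, the PSMB10 share was 6.73% in K562 and 6.86% in HepG2 with the median junction, and 11.3% in K562 and 7.08% in HepG2 without the most-read junction. For beta5, the PSMB8 share was 61.0% in K562 and 58.0% in HepG2 without division by junction number. The order of the lines turned with all mapped reads (29.7% in K562, 33.5% in HepG2), with the median junction (37.8% in K562, 39.8% in HepG2) and without the most-read junction (30.9% in K562, 48.6% in HepG2). With 50 reads required at a splice site, 2 junctions were counted.

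With untranslated annotations given precedence, shares in K562 were 8.63% 5′ untranslated, 26.3% coding and 27.4% 3′ untranslated, and in HepG2 11.5%, 20.4% and 28.3% in the same order. With all mapped reads they were 1.43%, 98.1% and 0.458% in K562 and 0.469%, 98.9% and 0.627% in HepG2. The cause of the moves was not tested, except that these follow from which annotation a junction is given. Depth limits PSMB9 in K562 (3 reads), PSMG3 (20 reads in K562 and 17 in HepG2) and PSMA6 at its own junctions (16 in K562).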
